A study of Mus musculus with 103 samples.

Results

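Antibodies are built from heavy and light chains, and the mouse chains measured here were the mu heavy chain (Ighm), the kappa light chain (Igk) and the J chain (Jchain, also written Igj). The mu chain pairs with a light chain to form IgM, which sits on the surface of B cells as the antigen receptor and is secreted by plasma cells. The kappa chain is the light chain of most mouse antibodies, and the J chain is a small joining protein made by plasma cells that links IgM and IgA into multimers for export by the Pigr receptor. The members were all probe sets whose only annotated symbol was Igk, Ighm or Jchain, which gave 3 genes and 16 of the 22690 probe sets on the array, with 4 for Igk, 11 for Ighm and 1 for Jchain. The 3 genes were chosen on measured values, namely their levels in B against T cells, in spleen against other tissues, and in universal RNA under different labelling protocols. In those 3 contrasts their levels are given as a description, with no test.

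The series compared ways of labelling small amounts of RNA for an Affymetrix mouse array, over 103 arrays. BIIB is an amplification protocol developed at Biogen Idec that yields biotinylated cDNA. Sorted lymphocytes were run on 18 arrays, all with BIIB: T and B cells were sorted from the spleen cells of 1 normal mouse and combined at 6 ratios, with 100 cells in total on 12 arrays (2 for each ratio) and 500 cells on 6 arrays (1 for each ratio). Total RNA of 8 tissues (spleen, kidney, lung, heart, brain, liver, ovary and embryo) from a bought panel was run once with BIIB at 500 pg and once with the Affymetrix one-cycle kit, which yields biotinylated cRNA, at 1 ug. RAW267 cells, a cultured line under the name the labels use, were sorted at 50 to 10000 cells and run with BIIB on 11 arrays. Bought mouse universal total RNA was run on 58 arrays: BIIB at 6 inputs between 10 pg and 5 ng (4 arrays each), Ovation (cDNA), RiboAmp HS (cRNA) and the two-cycle kit (cRNA) at 5 inputs between 50 pg and 500 ng (2 arrays each), and the one-cycle kit at 1 ug (4 arrays). The labels give no age, sex or strain for any of these, and none says that replicates were separate preparations, so a p-value measures only the spread between arrays, which may be technical. All sorted lymphocytes share 1 animal.

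Values are linear signal intensities that the authors had scaled so that the trimmed mean of every array was close to 2501, while the array medians still ran between 230 and 1661. Signals under 500 are treated as low below. Of the fixed B cell marker list, 7 of 8 genes had a probe set of their own, and their summed signal was 300954 to 457989 on the 3 arrays of unmixed B cells, against 4265 to 6481 on the 3 arrays of unmixed T cells. The T cell list, also 7 of 8 genes, gave 11995 to 26806 in B cells, against 168951 to 191496 in T cells. The macrophage and myeloid list (9 of 9 genes) summed to 9877 to 110726 in B cells, against 2414 to 7035 in T cells, and most of that was Mpeg1 at 5886 to 100019 in B cells, against 46.0 to 711 in T cells; its defining gene Csf1r read 36.7 to 1482 in B cells, against 56.5 to 664 in T cells. The part of these cells in the results was not tested. Both arrays labelled brain carried liver transcripts (Alb 1383443 with BIIB and 389092 with one-cycle), with Mbp, a myelin gene, at 148 and 138. Both arrays labelled liver carried Mbp at 294770 with BIIB and 121927 with one-cycle, with Alb at 378 and 65.2. They are called the arrays labelled brain and labelled liver, and results that rest on them are given with and without them.

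Most of the 16 probe sets were dim on most arrays, and the bright ones did not share a pattern (see the heat map of medians). Igk 1452557_a_at was at or above a signal of 500 on 89 of 103 arrays and Jchain 1424305_at on 82. Ighm 1427329_a_at reached that level on 50 arrays and Ighm 1427351_s_at on 48, while the other 9 Ighm and 3 Igk probe sets did so on 9 to 41. Affymetrix marks with _x and _s those sets whose probes also match other sequences or several transcripts, and the variable parts of immunoglobulin genes are near copies of each other, so the gene that each set reads is uncertain.

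**Figure D1:**
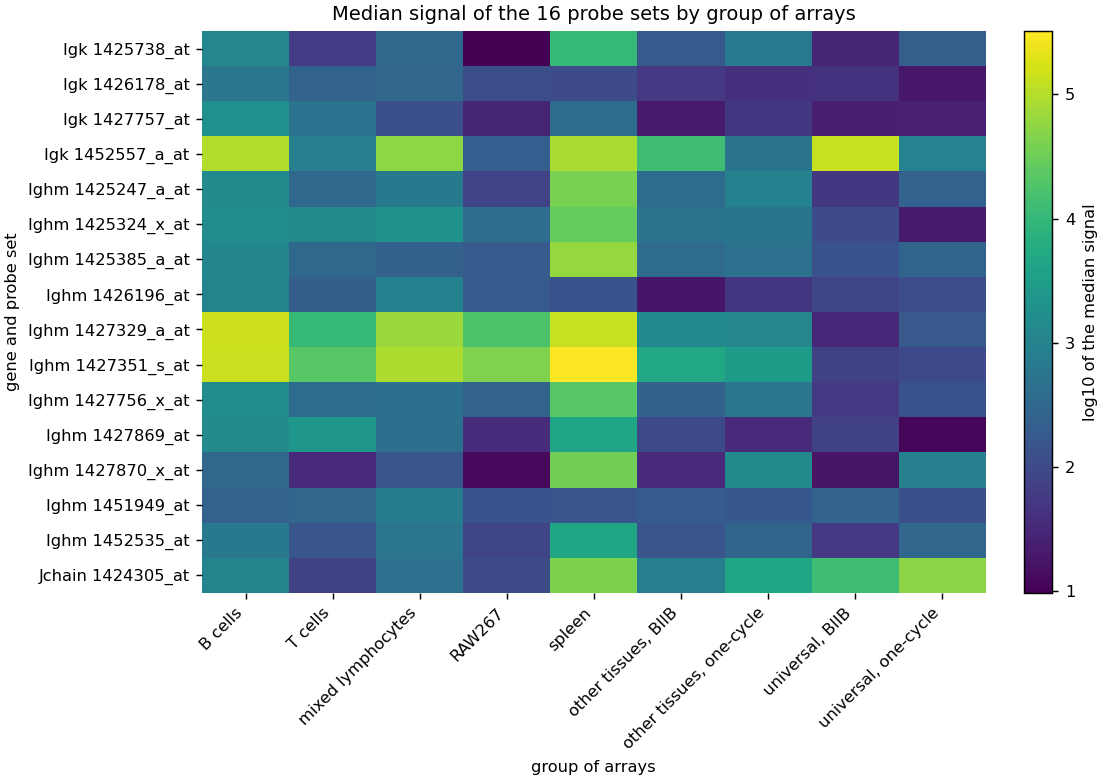
Heat map of the median signal (colour, log10 scale) of each of the 16 probe sets (rows) over the arrays of each group (columns); the groups differ in number of arrays and protocol, and levels are to be read along a row, not between rows. Igk 1452557_a_at, Ighm 1427329_a_at and Ighm 1427351_s_at are bright in B cells and spleen. These Ighm sets are also bright in RAW267 cells and not dim in T cells, and the Igk set is also bright in universal RNA with BIIB. Jchain 1424305_at is bright in spleen and universal RNA but not in sorted B cells. The spleen column pools 1 BIIB and 1 one-cycle array, which read 170571 and 556 for Igk 1452557_a_at.

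In sorted lymphocytes the brightest kappa set followed the B cells. Igk 1452557_a_at read 96340 and 111023 on the 2 arrays of 100 B cells, against 138 and 822 on the 2 arrays of 100 T cells, and 89176 on the array of 500 B cells, against 1420 on the array of 500 T cells. The difference at 100 cells was 7.70 on the log2(signal + 125) scale, in a contrast that the choice of members had used. Between these ends the mean signal of the 100-cell arrays was higher with more B cells up to 60%: it read 26979 and 22460 at 20% B cells, 63290 and 53401 at 40%, 112428 and 93160 at 60%, and 92942 and 110754 at 80%. At 60% and above, the arrays of 100 cells overlapped each other. Expressed as the distance between the T and B ends, the 100-cell arrays stood at 25.7% and 21.3% of the way at 20% B cells, at 60.9% and 51.3% at 40%, and at 108% and 89.8% at 60%. The 500-cell arrays stood at 15.8%, 39.5%, 62.3% and 61.5% of the way at 20%, 40%, 60% and 80% B cells, so the 100-cell arrays had come close to the B cell level at a ratio where the 500-cell array had not. The other Igk sets were far dimmer. In 100 cells 1425738_at averaged 1023 ± 242 in B and 59.6 ± 4.3 in T cells (SD, n = 2 each). No clear order could be read from 1426178_at, at 937 ± 458 in B and 532 ± 706 in T cells (SD, n = 2 each). Igk 1427757_at averaged 447 over the 12 arrays of 100 cells. The labels give the number of T and B cells sorted into each sample, but RNA per cell was not measured.

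**Figure D2:**
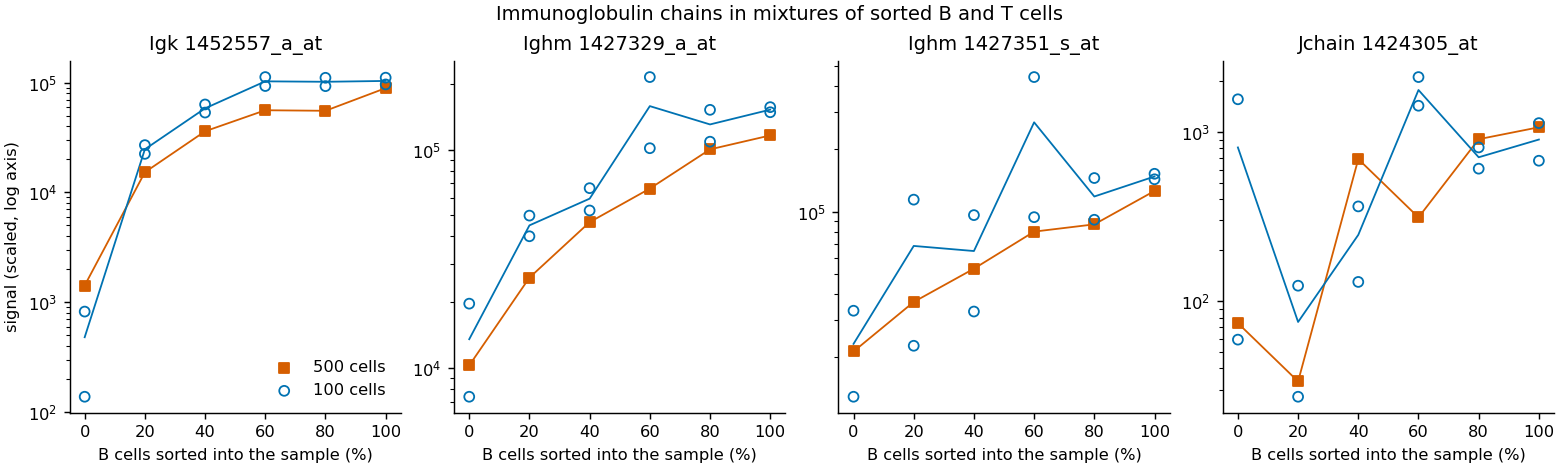
Signal (log axis) of 4 probe sets against the share of B cells in the sample; circles are arrays of 100 cells (2 per ratio), squares arrays of 500 cells (1 per ratio), and lines join the mean at each ratio. Igk 1452557_a_at spans from 138 in a T cell array to 112428, Ighm 1427329_a_at starts at 7374, and Jchain 1424305_at has no order by B share and stays at or below 2115.

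The bright mu chain sets followed the B cells over a narrower range, since the T cell arrays were not dim. Ighm 1427329_a_at read 156356 and 148176 in 100 B cells, against 7374 and 19682 in 100 T cells, and 116031 in 500 B cells, against 10261 in 500 T cells, a difference of 3.64 on the log2 scale at 100 cells. The T cell arrays stood far above a signal of 500. Some B cell markers were above it in T cells too. Fcer2a read 27633 to 56518 in B cells, against 1695 to 3443 in the same T cells, where the means of Ms4a1 and Cd22 were 927 and 600. The means of the other 4 B cell markers were under 500 there, with Cd79b at 145 to 980. With 500 cells the signal was higher at each larger B share, with 25889 at 20%, 46485 at 40%, 66246 at 60% and 100161 at 80%. The second bright set, Ighm 1427351_s_at, read 151816 and 142846 in 100 B cells, against 12897 and 33390 in 100 T cells. Its replicates disagreed more in the mixtures, with 114061 and 22663 at 20% B cells and 442416 and 93973 at 60%, and the first of the arrays at 60% B cells lay above all unmixed B cell arrays for both sets (214716 for 1427329_a_at). The other 9 Ighm sets were dim in sorted cells: their median over the 3 B cell arrays was 261 to 1492, and no order between B and T cells could be read from 1427869_at (936 to 1614 in B cells, 529 to 5691 in T cells).

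The J chain had no clear order by B cells and stayed at or below 2115 on all 18 lymphocyte arrays. Jchain 1424305_at read 677 and 1130 in 100 B cells, against 59.2 and 1563 in 100 T cells, and 1068 in 500 B cells, against 74.1 in 500 T cells. The B and T arrays overlapped, because 1 T cell array was higher than both 100-cell B arrays; the difference of 0.85 on the log2 scale was -0.75 without the dimmer T cell array and 2.45 without the brighter one. The highest reading, 2115, came from a mixture with 60% B cells. Plasma cell markers had a summed signal over 5 of 6 genes of 2307 to 10815 in B cells, against 3716 to 5640 in T cells.

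Other immunoglobulin chains with a symbol of their own (27 probe sets of 18 genes) gave further readings of the same cells. Only some of these sets are given here, and they do not stand for the rest. Igkv8-30 1452463_x_at, a kappa variable segment, averaged 68196 in 100 B cells, against 2367 in 100 T cells. Ighv14-2 1455530_at, a heavy chain variable segment, averaged 101930 in 100 B cells, against 1259 in 100 T cells. Igha, the heavy chain of IgA, was low in comparison with its own tissue levels: 1425763_x_at averaged 10686 in 100 B cells, against 1444 in 100 T cells, and read 171417 in spleen with BIIB.

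Genes that work with these chains were tested in the 12 arrays of 100 cells with limma (lmFit and eBayes, Benjamini-Hochberg over all probe sets tested; a change was called at an adjusted p under 0.05 and at least 2-fold). Cd79b, a signalling partner of surface immunoglobulin, averaged 270300 in B cells, against 562 in T cells, a change of 8.93 ± 1.07 (SE), limma adjusted p = 0.00151. Pou2af1, a coactivator of immunoglobulin transcription, rose by 5.56 ± 1.01 (adjusted p = 0.0309, limma) and Fcgr2b, the inhibitory receptor for IgG, by 7.87 ± 1.13 (adjusted p = 0.00453, limma). These were 1 of 4 tested genes of the receptor complex list, 1 of 18 of the antibody secretion list and 1 of 7 of the list of receptors that bind immunoglobulin; none of 6 genes for rearrangement and class switching passed. The list medians were 2.37, 0.73, -0.16 and 1.28, beside -0.05 over all 18317 probe sets tested, of which 0.24% were called. Of the 14 member probe sets tested there the median difference was 1.27, which the choice of members had used. The count of 3 list genes was 1 without either T cell array or without the first B cell array.

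Cell number at a matched ratio was independent of the choice of members. Averaged over the 6 ratios, Igk 1452557_a_at differed by -0.28 ± 0.45 (log2, SE) between 500 and 100 cells (limma adjusted p = 0.964), Ighm 1427329_a_at by -0.54 ± 0.41 (adjusted p = 0.922) and Jchain by -0.35 ± 0.53 (adjusted p = 0.962). None of the 14 tested member probe sets passed, and 1 had an unadjusted p under 0.05. Over all 18348 probe sets limma called 0%, with 1051 at an unadjusted p under 0.05.

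In RAW267 cells 2 of the 11 mu chain sets were bright, with almost no kappa or J chain signal. Ighm 1427329_a_at read 13458 to 29086 (median 17924) over the 11 arrays and Ighm 1427351_s_at read 20979 to 50817 (median 42243). Igk 1452557_a_at read 32.6 to 688 (median 216) and Jchain 10.1 to 296 (median 111) on the same arrays. These 2 mu chain sets were above 500 on every RAW267 array, while the medians of the other 9 were 12.5 to 396, and the kappa set exceeded 500 on 3 of the 11. The B cell markers were low there: 0 of 7 had a mean signal of 500 or more, their sum was 629 to 1499, and Cd79b read 13.4 to 311 and Ms4a1 15.4 to 150. Macrophage genes were high, with Csf1r at 98027 to 256301 and Lyz2 at 155060 to 399185. From 50 to 10000 sorted cells the fitted change was -0.05 ± 0.34 for Ighm 1427329_a_at (limma adjusted p = 0.936) and 0.19 ± 0.36 for 1427351_s_at (adjusted p = 0.761); neither of the 2 member sets that could be tested passed, and 2.94% of the 11479 probe sets tested were called. The first was 0.08 after quantile normalization and 0.02 without the second array of 5000 cells, and the second was -0.26 without the second array of 50 cells.

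Among the tissues, spleen had the highest signal of the bright mu chain sets and of the J chain under both protocols. Each tissue value is from 1 array. Ighm 1427329_a_at read 137668 in spleen with BIIB, against 438 to 2381 in the other 7 tissues, and 128390 in spleen with one-cycle, against 647 to 6011 in the others. Ighm 1427351_s_at read 423534 in spleen with BIIB, against 119 to 11618 in the others, and 221518 in spleen with one-cycle, against 548 to 10482. The runner-up was lung for 1427351_s_at under both protocols, and kidney was the lowest for this set with BIIB. Jchain read 17588 in spleen with BIIB, against 30.3 to 2343, and 65700 in spleen with one-cycle, against 257 to 9724. Kidney stood second and embryo last for Jchain under both protocols.

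**Figure D3:**
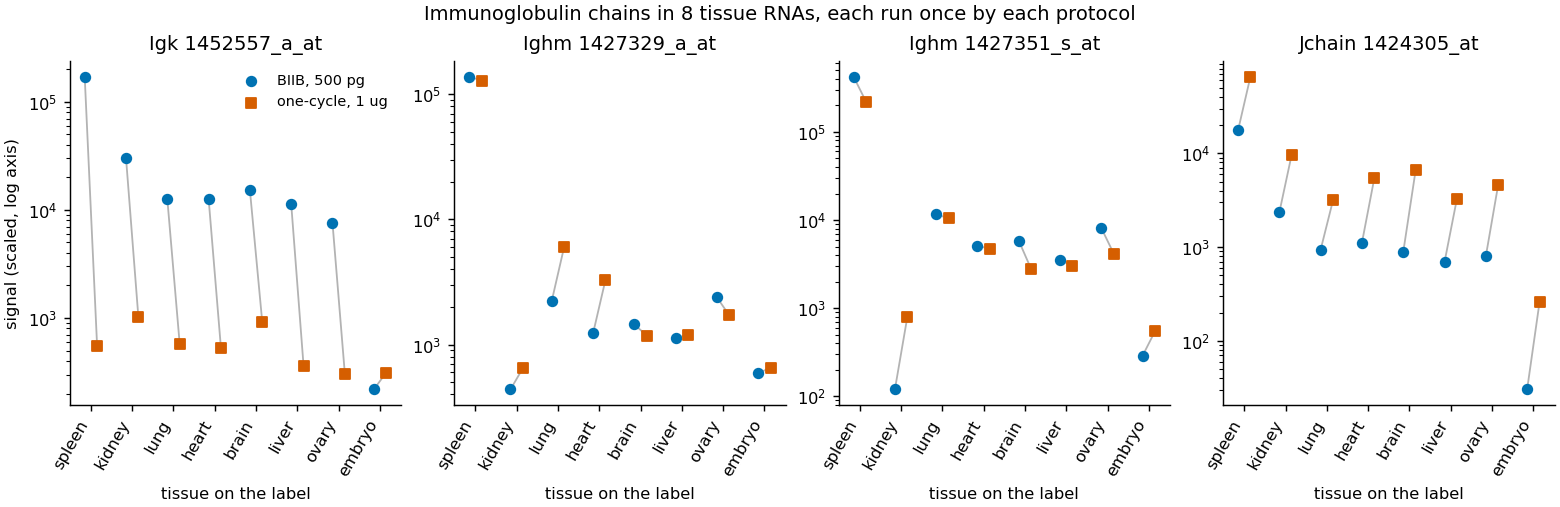
Signal (log axis) of 4 probe sets in 8 tissue RNAs named as on the labels; circles are BIIB at 500 pg, squares one-cycle at 1 ug, 1 array each, and grey lines join the same tissue. The mu chain sets are highest in spleen under both protocols, Jchain is lower with BIIB in all 8 tissues, and Igk 1452557_a_at stands at 170571 in spleen with BIIB beside 556 with one-cycle.

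The order of the tissues for the kappa set depended on the protocol. With BIIB, Igk 1452557_a_at read 170571 in spleen, 30373 in kidney, 15267 on the array labelled brain, 12725 in heart, 12655 in lung, 11366 on the array labelled liver, 7575 in ovary and 218 in embryo. With one-cycle the same set read 556 in spleen, inside the range of 302 to 1017 of the other 7 tissues, so spleen did not stand apart. A group of 5 Ighm sets that were dim in sorted B cells was bright in spleen: 1425385_a_at read 50438 with BIIB and 75562 with one-cycle, 1425247_a_at read 33762 and 46162, 1425324_x_at 27764 and 28070, 1427870_x_at 12140 and 54287, and 1427756_x_at 10378 and 33056. For all 3 Igha sets spleen read between 84237 and 171417 over both protocols, kidney between 29243 and 106063 and lung between 15021 and 37994.

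The genes around the chains were tested for spleen against the mean of the other 7 tissues, with the protocol as a term. Cd79a and Cd79b, the signalling pair of the B cell receptor, were both higher in spleen, by 4.39 ± 0.39 (limma adjusted p = 7.55e-06) and 5.20 ± 0.28 (limma adjusted p = 3.92e-07). In the antibody secretion list 6 of 16 tested genes rose, led by Pou2af1 at 5.18 ± 0.38 and with Derl3, a component of endoplasmic reticulum degradation, at 1.80 ± 0.31, and 2 fell, Sdc1 (the plasma cell surface marker, also made by epithelia) by 1.09 and Dnajb9 by 1.12. Of 8 tested receptors that bind immunoglobulin 5 rose, among them the IgE receptor Fcer2a at 2.79 ± 0.45 and the shared signalling chain Fcer1g at 2.31 ± 0.38, and Pigr, the epithelial carrier of polymeric immunoglobulin, fell by 3.51 on the log2 scale. None of 3 tested rearrangement genes passed. The share called over all 15180 probe sets was 34.2%, and macrophage and myeloid markers moved with spleen too, at a sum of 484010 to 558269 in spleen, against 13980 to 295815 in the other tissues; their part was not tested. The 16 calls stayed at 16 in number without the arrays labelled brain and liver and were 10 without the BIIB spleen array.

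The protocol was also tested in the tissue RNAs. The choice of members had used these 16 arrays for spleen against other tissues, but not for the protocol difference within them. With tissue as a term, 12 of the 16 member sets could be tested. Of these, 1 was higher with BIIB, 4 were lower and 7 did not pass, where 36.6% of all 15180 probe sets were called. Ighm 1452535_at, among the 4, and Ighm 1427869_at, among the 7, were each tested only through 1 bright spleen array. Ighm 1427869_at read 9235 in spleen with BIIB and 10.0 to 605 on the other tissue arrays. The members' median difference was -0.48, beside -0.27 over all probe sets tested. Igk 1452557_a_at averaged 32590 ± 56390 with BIIB and 569.8 ± 267.8 with one-cycle (SD over 8 tissues), a difference of 4.19 ± 0.63 (SE, limma adjusted p = 0.000126). It was higher with BIIB in 7 of 8 tissues, by 3.89 to 7.97, and in embryo it differed by -0.35. Jchain averaged 3048 ± 5910 with BIIB and 12340 ± 21740 with one-cycle (SD over 8 tissues), a difference of -2.02 ± 0.18 (limma adjusted p = 2.05e-06), and was lower with BIIB in 8 of 8 tissues.

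**Figure D4:**
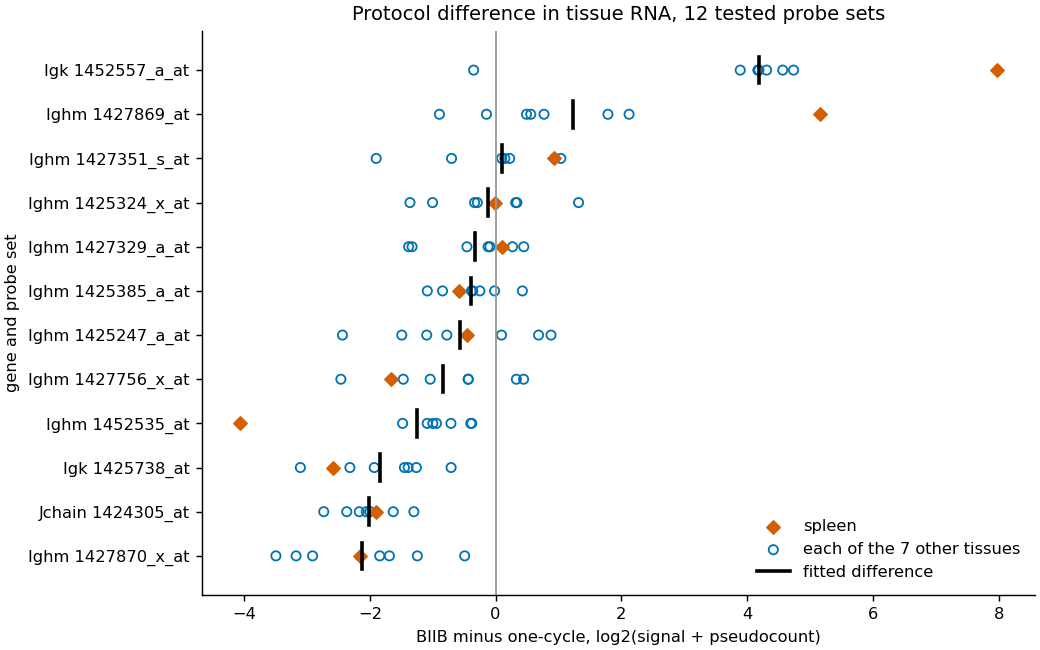
BIIB minus one-cycle difference on the log2(signal + pseudocount) scale for the 12 member probe sets that could be tested; circles are the 7 other tissues, diamonds spleen, and black bars the fitted difference. Igk 1452557_a_at lies at 4.19 with spleen at 7.97, while Jchain 1424305_at, Igk 1425738_at, Ighm 1427870_x_at and Ighm 1452535_at lie below 0 in all 8 tissues.

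Probe sets of one gene went opposite ways. Igk 1425738_at, which read 2828 in spleen with BIIB and 17590 with one-cycle, fell by 1.84 on the log2 scale with BIIB (-1.84 ± 0.25, limma adjusted p = 6.2e-05), in 8 of 8 tissues. Ighm 1427870_x_at fell by 2.12 (-2.12 ± 0.31, limma adjusted p = 9.78e-05) and Ighm 1452535_at by 1.26 (-1.26 ± 0.35, limma adjusted p = 0.00845), each lower in 8 of 8 tissues. Ighm 1452535_at could be tested only through the one-cycle spleen array, as it read 393 in spleen with BIIB and 8544 with one-cycle. On the other 14 arrays it read 9.1 to 281 with BIIB and 148 to 653 with one-cycle, and without the one-cycle spleen array it did not pass the filter on low values. The bright mu sets did not pass: 1427329_a_at differed by -0.32 ± 0.23 (limma adjusted p = 0.248) and 1427351_s_at by 0.10 ± 0.30 (adjusted p = 0.791). The difference of 1427351_s_at was -0.08 without the arrays labelled brain and liver, -0.04 without either array labelled brain, and -0.02 without either spleen array or either ovary array. Without the arrays labelled brain and liver 6 member sets were called, with Igk 1452557_a_at at 4.17 ± 0.80 (limma adjusted p = 0.00168) and Jchain at -1.89 ± 0.19 (limma adjusted p = 4.52e-05). The difference of 1452535_at was under 2-fold without the BIIB spleen array (-0.85), after quantile normalization (-0.83) and with a larger pseudocount (-0.77).

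Genes of the 4 lists behaved unevenly between the protocols in tissue RNA as well. Their counts stand beside 36.6% of all 15180 probe sets called in this comparison, 1863 higher and 3697 lower with BIIB. Cd79a fell by 2.06 with BIIB (-2.06 ± 0.26, limma adjusted p = 2.91e-05), while its partner Cd79b rose by 1.04 ± 0.19 (limma adjusted p = 0.000431). Of 16 tested secretion genes 7 fell, among them Xbp1, the transcription factor of the secretory programme, by 2.42 and the chaperone Dnajb9 by 2.12, and 2 rose, Creld2 by 1.91 and the disulphide isomerase Pdia6 by 1.53. Of 8 tested receptors that bind immunoglobulin, Fcgrt, the neonatal Fc receptor, rose by 1.41, and Fcer1g and Fcgr4 fell by 1.54 and 1.26. Ung and Xrcc4, DNA repair genes used in class switching, rose by 1.03 and 1.13, which was 2 of 3 tested in their list. With a larger pseudocount 9 list genes were called instead of 16.

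In universal RNA the labelling protocol went with the kappa signal, described here with no test because the members were chosen on it. Igk 1452557_a_at averaged 119948 ± 31406 with BIIB at 5 ng and 1052 ± 403 with one-cycle at 1 ug (SD, n = 4 each), a difference of 6.70 on the log2 scale. Its lowest reading over all 24 BIIB arrays was 85947, its median 136173 and its highest 246140. The 4 one-cycle arrays read 726, 730, 1192 and 1560. The other cDNA protocol, Ovation, gave 70725 to 269659 over 10 arrays. The cRNA kits were lower: RiboAmp HS gave 4187 to 55170 and the two-cycle kit 400 to 2194. The J chain had the opposite order, with 9999 to 17833 over the 24 BIIB arrays, against 47887 to 56110 with one-cycle. At 5 ng BIIB averaged 13045 ± 2358 and one-cycle 52410 ± 3694 (SD, n = 4 each), which is -2.01 on the log2 scale and close to the -2.02 in tissues. Ovation, also a cDNA protocol, read 31297 to 323058 for Jchain, above every BIIB array. Jchain read 8926 to 72810 with two-cycle and 21355 to 67636 with RiboAmp HS.

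**Figure D5:**
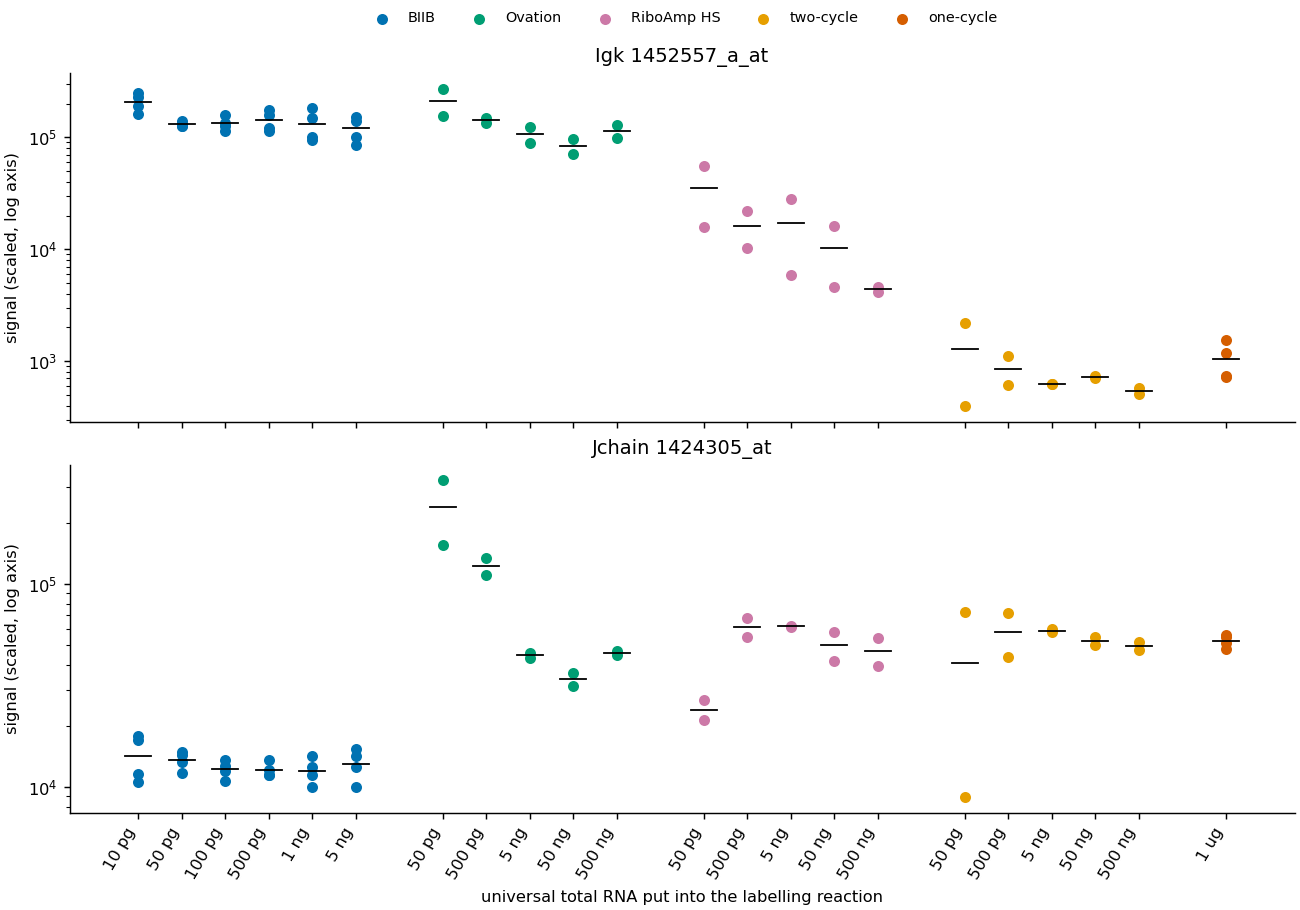
Signal (log axis) of Igk 1452557_a_at (top) and Jchain 1424305_at (bottom) in universal RNA by protocol and input, from low to high within a protocol; points are arrays and bars means. The kappa set is at or above 70725 with BIIB and Ovation and at or below 2194 with the two-cycle and one-cycle kits, and Jchain is at or below 17833 with BIIB.

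The mu chain set Ighm 1427329_a_at was low in universal RNA. It read 11.5 to 422 over the 24 BIIB arrays, against 53.1 to 436 with one-cycle, and reached 500 on 6 of the 58 arrays, all run with the other kits. Ighm 1427870_x_at was above 500 with one-cycle: it averaged 1037 ± 394 there and 66.9 ± 75.9 with BIIB at 5 ng (SD, n = 4 each). That is a difference of -2.62 on the log2 scale. Other kappa sets differed less between the protocols in universal RNA. Igkv8-30 1452463_x_at averaged 34258 with BIIB at 5 ng and 32087 with one-cycle. Of 3 probe sets that are annotated to several kappa genes, picked out after their values were seen, 1427455_x_at averaged 169549 with BIIB at 5 ng and 173725 with one-cycle, and read 256803 in spleen with BIIB and 216992 with one-cycle. The set 1427660_x_at averaged 64152 with BIIB at 5 ng and 73368 with one-cycle, and 1452417_x_at averaged 29993 and 38464. In these 3 tissues both were lower with BIIB: 1427660_x_at read 65334 in spleen, 3535 in kidney and 2914 in lung with BIIB, against 105813, 25017 and 23414 with one-cycle. For 1452417_x_at the values were 23034 in spleen, 1438 in kidney and 1079 in lung with BIIB, against 55460, 11678 and 13146 with one-cycle. All 3 gave kappa signal with one-cycle in spleen and universal RNA, while Igk 1452557_a_at read 556 in spleen.

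Plasma cell markers, like Jchain, read lower with BIIB. Their summed signal was 6405 to 25054 over the 24 BIIB arrays, against 35968 to 39419 with one-cycle. Both protocols labelled bought universal RNA, so these sums compare protocols, not samples with more or fewer plasma cells. The cause was not tested. Among the tested list genes, Sdc1 fell by 2.81 (-2.81 ± 0.14, limma adjusted p = 6.03e-08), Pdia4 by 2.08 and Xbp1 by 1.85 with BIIB at 5 ng, and Creld2 rose by 1.45 ± 0.11 and Pdia6 by 1.35 ± 0.13. In all 3 of 17 tested secretion genes rose and 7 fell, beside 40.8% of 13119 probe sets called and a median of -0.28 over all of them. Xrcc4 rose by 2.03 ± 0.13 and Fcer1g fell by 2.69. No gene of the receptor complex passed, of 1 tested.

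The amount of RNA put into BIIB was not used in the choice of members. The 4 BIIB arrays at 5 ng were part of the protocol contrast that the choice had used, so the values are partly shared. Neither Igk 1452557_a_at nor Jchain, the only 2 of 16 sets past the filter, passed at any of 3 lower inputs. Igk averaged 205860 ± 37895 at 10 pg, 130316 ± 6232 at 50 pg, 141384 ± 29210 at 500 pg and 119948 ± 31406 at 5 ng (SD, n = 4 each). Jchain averaged 14281 ± 3733 at 10 pg, 13569 ± 1390 at 50 pg, 12133 ± 1010 at 500 pg and 13045 ± 2358 at 5 ng (SD, n = 4 each). The change of Igk against 5 ng was 0.80 ± 0.41 at 10 pg (limma adjusted p = 0.248), 0.16 ± 0.29 at 50 pg (adjusted p = 0.842) and 0.25 ± 0.24 at 500 pg (adjusted p = 0.638). For Jchain it was 0.11 ± 0.41 at 10 pg (limma adjusted p = 0.889), 0.07 ± 0.27 at 50 pg (adjusted p = 0.932) and -0.09 ± 0.19 at 500 pg (adjusted p = 0.854). Over all probe sets limma called 12.1% at 10 pg, 1.02% at 50 pg and 0% of 11848 at 500 pg, where 1773 had an unadjusted p under 0.05 and neither member did. The median change over all probe sets was -0.78 at 10 pg and -0.25 at 50 pg, and after quantile normalization the Igk value was -0.06 at both. The first 2 replicates of Igk lay below the other 2 at 5 ng (85947 to 101366 beside 140106 to 152372), at 1 ng, at 500 pg and at 100 pg, and with this split as a block no member was called.

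With the other kits, where 50 pg was set against 500 ng in 2 arrays each, the readings were less even. With Ovation, Jchain read 154588 and 323058 at 50 pg and 44476 and 46704 at 500 ng, a rise of 2.29 ± 0.53 (limma adjusted p = 0.0164), while the value for Igk 1452557_a_at was 0.86 ± 0.53 (adjusted p = 0.262); 1 of 2 tested member sets was called, where 26.9% of all sets were. In a fit of those 4 arrays alone Jchain had an adjusted p of 0.134, and without either 500 ng array it had 0.122 and 0.115; after quantile normalization it had 0.159 and Igk stood at -1.42. Igk was called without the second 50 pg array (1.27, limma adjusted p = 0.0395). With RiboAmp HS 3 of 8 tested sets rose, where 14.2% of all did: Ighm 1451949_at by 4.58 ± 0.81 (limma adjusted p = 0.0217), Igk 1425738_at by 3.92 ± 0.71 (adjusted p = 0.0221) and Ighm 1425385_a_at by 3.20 ± 0.70 (adjusted p = 0.0272). These 3 averaged 10.7, 20.9 and 178 at 500 ng, so a set passed the filter there through its low-input arrays. None of the 3 was called in a fit of the 4 arrays alone or without either 500 ng array, and 5 sets were called without the first 50 pg array. Igk 1452557_a_at read 15705 and 55170 at 50 pg and 4187 and 4567 at 500 ng, a difference of 2.72 ± 0.96 (limma adjusted p = 0.0818). Without the second 50 pg array it was called at 3.62 (limma adjusted p = 0.0385).

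With the two-cycle kit none of 8 tested member sets passed, 5 had an unadjusted p under 0.05, and 0.193% of 16090 probe sets were called. Of these 5, Ighm 1425247_a_at, 1425324_x_at, 1427329_a_at and 1452535_at averaged 233, 124, 197 and 206 at 500 ng. They passed the filter through arrays of lower input, so the filter itself favoured a rise, also in the counts without 1 array. Jchain read 72810 and 8926 at 50 pg and 47426 and 51518 at 500 ng, a difference of -0.95 ± 0.87 (limma adjusted p = 0.472). The 2 arrays at 50 pg disagreed: 7 sets were called without the first of them and 1 without the second, and the Jchain difference was -2.45 without the first and 0.56 without the second. The differences between each kit and BIIB in the change between 5 ng and 50 pg were tested directly, and 0 of 8 member sets passed for any of them. The Ighm sets tested there averaged 43.0 to 248 with BIIB at 50 pg and passed the filter through arrays of the other kits. For Jchain with Ovation the difference was 2.26 ± 1.00 (limma adjusted p = 0.183). These counts depended on single arrays: 4 sets were called for two-cycle without its first 50 pg array, 3 for RiboAmp HS without its first 50 pg array, and Jchain for Ovation without either two-cycle 50 pg array (limma adjusted p = 0.0488 and 0.0477). Over all 16884 probe sets limma called 0% for two-cycle, with 2264 at an unadjusted p under 0.05, 3.05% for Ovation and 0.0355% for RiboAmp HS; among the 8 member sets 3, 1 and 2 had an unadjusted p under 0.05.

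The genes whose pattern was most like each chain were listed as a description, by Pearson r of log2 values, over arrays that are not independent. The lymphocyte arrays share 1 animal and 1 protocol, and the tissue arrays hold each RNA under both BIIB and one-cycle. Over the 18 lymphocyte arrays Igk 1452557_a_at was closest to H2-Aa (r = 0.983), a class II antigen presentation gene, Ms4a1 (r = 0.976), which encodes the B cell antigen CD20, and Scd1 (r = 0.968), a fatty acid desaturase. Ighm 1427351_s_at was closest to Fcrl1 (r = 0.859), an Fc receptor-like protein of B cells, Sypl (r = 0.853) and Ebf1 (r = 0.822), a B cell transcription factor. The values for Jchain were lower, at 0.766 for Anapc15, 0.762 for Cib1 and 0.749 for Uox. Over the 16 tissue arrays Ighm 1427351_s_at was closest to Cd53 (r = 0.918), a leukocyte tetraspanin, Stk10 (r = 0.909) and Il1b (r = 0.885), and Jchain to H2-Ea (r = 0.893), Epsti1 (r = 0.884) and Ppcdc (r = 0.883). Igk 1452557_a_at was closest there to Setd6 (r = 0.92), Dicer1 (r = 0.917) and Man2c1os (r = 0.915). This set was higher with BIIB in 7 of the 8 tissues, and the part of the protocol in these r values was not tested.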

How the data were processed

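Linear signal intensities for 103 Affymetrix mouse arrays were deposited by the authors as 1 table, made with MAS5 per the submitters' processing notes; its settings are not given in the sources used here. Each array's trimmed mean (2% off each end) lies between 2500.23 and 2502.45, so no further scaling was applied. Precision depends on how many arrays a group holds. Of 22690 probe sets, 20393 have 1 symbol in the platform annotation, 691 several and 1606 are unnamed here. All 16 member sets matched RefSeq by gene ID. Groups came from the sample labels.

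Tests were run on log2(signal + 125), a pseudocount of 5% of the common trimmed mean, which understates fold changes of dim sets. limma 3.58.1 (lmFit, eBayes, two-sided) in R 4.3.3 was used without 64 control sets and sets with a mean signal under 500 over the arrays of the fit. P-values were Benjamini-Hochberg adjusted over all sets tested, and a change was called at an adjusted p under 0.05 and at least 2-fold. The fits were tested on simulated data. BIIB input fits used the 8 arrays of both inputs, and each kit fit all 10 arrays of that kit.

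The members and lists were chosen with earlier results of these data known. The naming rule took all member sets, other immunoglobulin chains with 1 symbol, list genes (by their brightest set) and, for the brightest set of each member gene, the 3 most similar genes. Same-numbered BIIB arrays at 500 pg and 5 ng deviated together to a small degree (r = 0.249, 0.144, 0.13 and 0.145). So did same-numbered two-cycle arrays at 50 pg and 500 ng (r = 0.114). No label says that the numbers pair arrays, and the main fits did not use them. With the number as a block no member call changed for BIIB at 500 pg. Alternatives were quantile normalization, other pseudocounts and filters, each array left out, and replicate blocks.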

Additional observations from a re-analysis of the deposited data

How the results depend on the processing

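Single arrays set the limit in several comparisons, since groups held 1 to 4 arrays, and dim probe sets near a signal of 500 are imprecise. Apart from leaving out arrays, the alternatives left 212 values of single member sets with their direction and side of the threshold, while 8 no longer passed, 1 newly passed and 9 reversed. After quantile normalization Igk 1452557_a_at against BIIB 5 ng was -0.0573 at 50 pg and -0.0597 at 10 pg, and Jchain 1424305_at was -0.0199 and -0.108. Igk with Ovation was -1.42, and its difference between kit and BIIB was -0.0477 for two-cycle and -1.74 for Ovation. The RAW267 trend of Ighm 1427329_a_at was then 0.0816, and BIIB minus one-cycle for Jchain in universal RNA was -2.36. The cause was not tested.

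Member sets called were 0 with Ovation and 1 with RiboAmp HS after quantile normalization, 4 with Ovation without a filter, 1 with RiboAmp HS at a filter of 40%, and 0 for both in a fit of the 4 arrays alone, where fewer arrays give the spread. At a pseudocount of 20%, 9 list genes were called between the protocols in tissues. Without the arrays labelled brain and liver Ighm 1427351_s_at was -0.0796 there. Same-numbered RiboAmp HS arrays at 50 pg and 500 ng share only a number (r = 0.0547), and with that number as a block 4 member sets were called, with Igk 1452557_a_at at 2.72 (limma adjusted p = 0.0468), and in no comparison did the block move the count of member calls by over 1.5 times. The settings with 4 arrays alone, the split of BIIB replicates and the arrays labelled brain and liver were chosen after seeing the data.

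Leaving out 1 array at a time, the Jchain change with BIIB ran between -0.0513 and 0.156 at 50 pg and between -0.00993 and 0.242 at 10 pg. Member sets called ran between 0 and 7 with two-cycle, 0 and 2 with Ovation, and 0 and 5 with RiboAmp HS. With two-cycle Igk ran between -0.336 and 1.81 and Jchain between -2.45 and 0.558. For the differences between kit and BIIB, member sets called ran between 0 and 4 for two-cycle, 0 and 1 for Ovation, and 0 and 3 for RiboAmp HS. There Igk ran between -0.667 and 1.48 for two-cycle and between -0.101 and 2.16 for RiboAmp HS, and Jchain between -2.77 and 0.239 for two-cycle. Ighm 1427351_s_at in tissues ran between -0.0361 and 0.383. In RAW267 cells 1427329_a_at ran between -0.178 and 0.0186 and 1427351_s_at between -0.26 and 0.419. List genes called ran between 1 and 3 for B against T cells and between 10 and 18 for spleen. B minus T for Jchain ran between -0.751 and 2.45.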
